A study of Bos taurus with 22 samples.

Results

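Jejunal mucosa of 11 Holstein steers injected with glucagon-like peptide 2 (GLP-2) and of 11 steers injected with its vehicle was compared for how much the steers of a set differed from each other, gene by gene, and not for the mean level of a gene. All 22 samples of the series were used. All steers were infused into the abomasum with 3.94 g of raw corn starch per kg body weight (BW) per day, and were injected under the skin for 7 d. The vehicle was bovine serum albumin (BSA) in saline, and synthetic GLP-2 of the bovine sequence was given in it at 100 µg per kg BW per day. Within each set, some steers were infused with starch and water and others with starch and sodium caseinate at 1.30 g per kg BW per day, so that the 4 treatments were control (water with BSA, n = 5), casein (casein with BSA, n = 6), GLP-2 (water with GLP-2, n = 5) and casein + GLP-2 (n = 6). Steers had been placed in 6 BW blocks because stalls were limited, and body weight was 251.7 ± 20.1 kg (SD, n = 11) with GLP-2 and 248.0 ± 19.7 kg (SD, n = 11) with BSA. Each sample was mucosa scraped from the middle of the jejunum of a single animal, sequenced as poly-A RNA.

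Genes with 50 or more counts in every sample were tested, which were 9051 of the 27570 genes in the count table. The mean log2 CPM (counts scaled to library size) of each treatment was removed, so a deviation is how far a steer lay above or below the mean of its own treatment, scaled for the number of steers in that treatment. The SD of a gene in a set is the pooled SD within treatments (9 df), and the size of the deviations was compared between the sets by limma with Benjamini-Hochberg adjustment over all 9051 genes. Significance was declared at an adjusted p of at most 0.05 and a tendency at most 0.10.

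GLP-2 is a peptide of the enteroendocrine L cells that is known for promoting growth of the intestinal mucosa. In that mucosa, crypt cells replicate their DNA and divide, and their daughters move up the villus and become absorptive enterocytes or mucus-secreting goblet cells. Lymphocytes sit between the epithelial cells, and lymphoid follicles, connective tissue and a thin muscle layer lie beneath. A scraping can hold any of these, and in bulk RNA a lower share of a cell type and less RNA per cell cannot be told apart.

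Library totals ranged from 8809666 to 28447810 counts with GLP-2 and from 9003688 to 23666186 with BSA, with medians of 12226088 and 11965959. The 24 villus enterocyte markers summed to between 19920 and 74549 CPM with GLP-2 and between 3394 and 48648 CPM with BSA, so absorptive epithelium was found in every library. Other tissue layers were found too. The 18 B cell follicle markers summed to between 181 and 277 CPM with GLP-2 (median 217) and between 235 and 2673 CPM with BSA (median 375). The 19 smooth muscle markers summed to between 161 and 1252 CPM with GLP-2 and between 176 and 2098 CPM with BSA. Markers of enteric neurons and glia reached at most 39.7 CPM in a GLP-2 library and 90.3 CPM in a BSA library, and those of erythrocytes 0.954 and 3.07 CPM.

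Steers injected with BSA differed from each other more than steers injected with GLP-2 in most genes. The SD was larger with BSA in 7654 of 9051 genes (84.6%) and larger with GLP-2 in 1397. The median gene had a log2 ratio of the SDs (GLP-2 over BSA) of -0.56, with a jackknife SE of 0.14 over the 22 steers, which is a 1.47-fold larger SD with BSA. The median SD was 0.318 log2 units with GLP-2 and 0.459 with BSA. The SD was at least 2-fold larger with BSA in 1698 genes (18.8%) and at least 2-fold larger with GLP-2 in 47 (0.519%). Genes next to the count limit were like the rest: the median log2 ratio was -0.56 in the 202 genes with a lowest count of 50 to 54, and -0.59 in the 195 genes left out at 45 to 49.

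**Figure D1:**
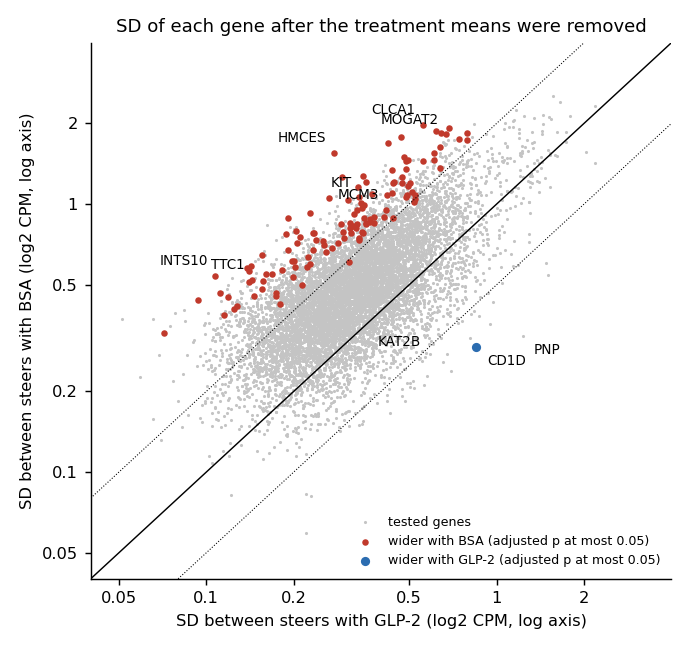
SD between steers in log2 CPM, after the treatment means were removed, with GLP-2 (horizontal axis) and with BSA (vertical axis) for each of 9051 genes, on log axes. Dotted lines mark a 2-fold difference and coloured points are genes past an adjusted p of 0.05; most points, 7654 of them, lie above the line of equal SD.

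By the limma test, 119 genes (1.31% of those tested) were significantly more spread with BSA and 1 gene (0.011%), CD1D, was significantly more spread with GLP-2. With tendencies included, the counts were 631 (6.97%) and 5 (0.0552%), and without adjustment 2061 (22.8%) and 74 (0.818%). In all 119 genes the SD was larger with BSA among water-infused steers and among casein-infused steers separately, as it was in 5496 of all tested genes (60.7%). Their SD was 1.96-fold to 5.64-fold larger with BSA, with a median of 2.82-fold. In each of the 119, both the highest and the lowest deviation belonged to BSA steers, which was the case in 67.8% of all tested genes. The 119 were chosen by the test of these same deviations. Their SD ratios, extreme steers and split by infusion follow largely from that choice and are only a description. How many genes passed depended on the form of the test and on single steers. Deviations from the treatment median called 0 genes with an unadjusted count of 791 for BSA and 26 for GLP-2, and fits without 1 steer called 8 (without GLP-2 replicate 5) to 440 (without casein replicate 5) for BSA.

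The BW block also bore on the counts. When block means were removed together with treatment means, limma called 0 genes, with unadjusted counts of 610 for BSA and 56 for GLP-2. Under the block, the SD was larger with BSA in 72.5% of genes, the median log2 ratio was -0.22, and 117 of the 119 genes had the larger SD with BSA. Every gene called below was called without the block.

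The direction was visible in single animals. A steer's distance was defined as the root mean square of its deviations over all 9051 genes. It was 0.305 at the lowest, 0.411 at the median and 0.482 at the highest with GLP-2, and 0.409, 0.530 and 0.801 with BSA. Of 11 BSA steers, 8 lay above the highest GLP-2 steer. The mean was 0.405 ± 0.0475 (SD, n = 11) with GLP-2 and 0.571 ± 0.124 (SD, n = 11) with BSA, a difference of -0.167 (2-sided permutation test, p = 0.0002, 100000 resamples). Among water-infused steers the difference was -0.209 and the sets did not overlap (2-sided exact permutation test, p = 0.00794, the smallest this design can give), and among casein-infused steers it was -0.129 (2-sided exact permutation test, p = 0.0455). With the block removed the difference was -0.0854 (permutation p = 0.0462). With the smooth muscle score, which averages the log2 CPM of the muscle genes in a library, removed by regression it was -0.0865 (permutation p = 0.0396), and with the B cell follicle score removed -0.122 (permutation p = 0.00983).

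**Figure D2:**
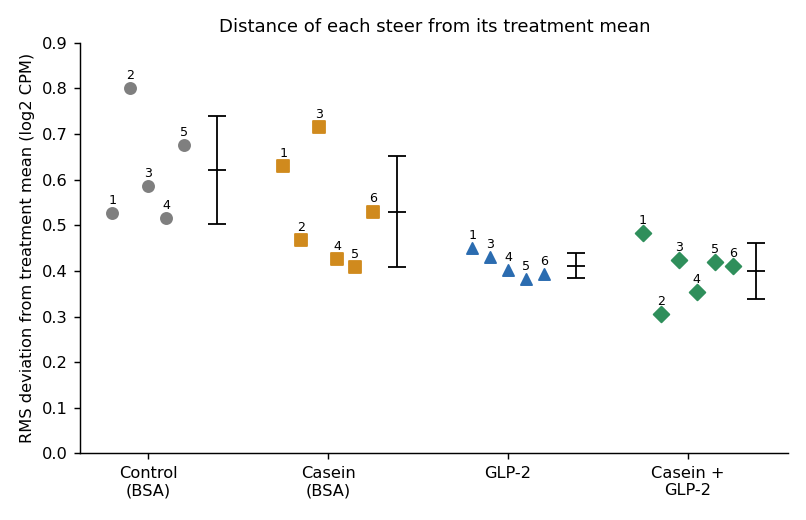
Distance of each steer from its treatment mean (root mean square deviation over 9051 genes, log2 units) in the 4 treatments, with replicate numbers beside the points and mean ± SD of the treatment at the side. The 5 control steers lie above all 5 GLP-2 steers, and control replicate 2 is the farthest at 0.801.

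The farthest steers were control replicate 2 at 0.801, casein replicate 3 at 0.715, control replicate 5 at 0.676 and casein replicate 1 at 0.630. They did not deviate in the same direction. Over all deviations, the first principal component held 42.7% of the squared deviations, with an SD of 21.6 with GLP-2 and 38.6 with BSA. Control replicate 2 lay at 69.2 on it and control replicate 5 at -52.1. Leading genes on the side of control replicate 2 were enterocyte genes, among them APOA4 and APOB of lipoprotein assembly, LCT (lactase) and MGAM (maltase-glucoamylase). Leading genes on the other side were JCHAIN, the joining chain of secreted antibody, and connective tissue and muscle genes such as VIM, COL1A1 and ACTA2. The second component held 13.2%, with casein replicate 3 at -53.4, and the third 9.06%, with control replicate 1 at 43.1.

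Genes of DNA replication were the list with most members called. Over all tested genes 1.31% were called for BSA, 6.97% with tendencies, and the SD was larger with BSA in 84.6%. Of 28 tested genes, 7 were significantly more spread with BSA, 16 with tendencies included, and the SD was larger with BSA in 26, with a median log2 ratio of -0.999 beside -0.56 over all genes. The 7 were PCNA (the sliding clamp), MCM3 (a subunit of the replicative helicase), RFC2 (clamp loader), RRM1 and RRM2 (the subunits of ribonucleotide reductase, which makes deoxynucleotides), LIG1 (DNA ligase) and CDT1 (a licensing factor). In edgeR's quasi-likelihood test of the mean, 23 of the 28 were significantly lower with GLP-2 and 1 was higher, where 13.6% of all tested genes were lower and 8.73% higher.

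MCM3 lay at chr23:24694544-24712140 (ARS-UCD1.2). Its log2 CPM was 4.54 at the lowest, 4.96 at the median and 5.93 at the highest with GLP-2, and 4.83, 6.31 and 7.34 with BSA. As deviations from a treatment mean must, those of the BSA steers lay on both sides of it. The gap between high and low BSA steers is a description, since the leading genes were named for the test of these deviations. Casein replicates 4, 5 and 6 and control replicates 2 and 4 were at 5.38 or lower, the other 6 were at 6.31 or higher, and the smallest scaled deviation of a BSA steer was 0.55. The SD was 0.416 with GLP-2 and 0.954 with BSA, a 2.29-fold difference (limma adjusted p = 0.0153; with the block adjusted p = 0.731), and the mean was lower with GLP-2 by a log2 fold change of -1.23 (edgeR adjusted p = 0.0149).

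PCNA was ordered in much the same way. It was 5.41, 5.92 and 6.77 (lowest, median and highest log2 CPM) with GLP-2 and 5.50, 7.02 and 8.09 with BSA. The 5 lowest BSA deviations were those of the same 5 steers as for MCM3. The SD was 0.350 and 0.989 (limma adjusted p = 0.0224; with the block adjusted p = 0.715). RRM1, RFC2, LIG1, CDT1 and RRM2 had a 1.99-fold (RRM2) to 2.55-fold (RFC2) larger SD with BSA. With the first principal component removed, the SD was larger with GLP-2 in RFC2, LIG1, CDT1 and RRM2 (log2 ratios 0.023, 0.037, 0.12 and 0.35). That of MCM3 was larger with GLP-2 in 1 or more other settings (at most 0.035), while PCNA and RRM1 kept the larger SD with BSA throughout. Dividing cells were also read by the mitotic list, in which 0 of 24 genes were called by limma. With tendencies (TPX2, NUSAP1 and AURKB) there were 3, beside 6.97% of all tested genes, and 8 without adjustment, beside 22.8%. The median log2 ratio of the list was -0.47.

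HMCES, which shields abasic sites in single-stranded DNA, had the largest SD ratio of the 119. Its log2 CPM was 3.41, 3.85 and 4.27 with GLP-2 (lowest, median and highest) and 3.67, 5.19 and 8.17 with BSA. The GLP-2 steers thus covered a 1.83-fold range of CPM and the BSA steers a 22.8-fold range, with control replicate 3 the highest. The SD was 0.274 with GLP-2 and 1.55 with BSA, 5.64-fold larger (limma adjusted p = 0.0224; with the block adjusted p = 0.730), and the mean was lower with GLP-2 (log2 fold change -2.55, edgeR adjusted p = 0.0149). The next genes were picked from the 119 after their values were seen, so that their calls are no count over a group. RNF8, a ubiquitin ligase of the DNA break response, had SDs of 0.169 and 0.549 (limma adjusted p = 0.0227). ABRAXAS1 and BABAM1, members of the BRCA1-A complex that is recruited to such breaks, had SDs of 0.233 and 0.779 and of 0.173 and 0.468 (limma adjusted p = 0.0412 and 0.0426). FANCI, a protein of DNA crosslink repair, DUT, which removes dUTP, RNASEH2A, a subunit of ribonuclease H2, and CKS1B, a subunit of cyclin-dependent kinases, were also among the 119.

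Absorptive genes also held called members. In the list of fat absorption and chylomicron assembly, 2 of 17 tested genes (MOGAT2 and NPC1L1) were significantly more spread with BSA, 6 with tendencies included, and the SD was larger with BSA in 16. In the villus enterocyte list 0 of 19 were called by limma, 5 tended to be more spread with BSA (MYO1A, KRT20, SLC51B, FABP2 and CDH17), 12 had an unadjusted p of at most 0.05, and the SD was larger with BSA in all 19, with a median log2 ratio of -1.06. Of 5 carbohydrases and hexose transporters 1 was called (MGAM), and of 13 peptidases and peptide transporters 2 (MEP1A and ACE). The shares over all tested genes were 1.31% called for BSA, 6.97% with tendencies, 22.8% without adjustment and 84.6% with the larger SD with BSA.

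MOGAT2, the enterocyte acyltransferase that rebuilds triglyceride from absorbed monoglyceride, lay at chr15:54884911-54897038. Its log2 CPM was 5.33, 6.13 and 7.48 with GLP-2 (lowest, median and highest) and 2.44, 4.22 and 6.96 with BSA. Deviations from a treatment mean lie on both sides of it in any gene, so the order of the BSA steers is again only a description. Control replicates 1, 3 and 5 and casein replicates 1, 2 and 3 were at 4.22 or lower, the other 5 were at 5.49 or higher, and the smallest scaled deviation of a BSA steer was 0.62. The SD was 0.671 with GLP-2 and 1.82 with BSA, a 2.71-fold difference (limma adjusted p = 0.00868; with the block adjusted p = 0.564). The mean difference of 1.13 log2 units was a tendency (edgeR adjusted p = 0.0901). NPC1L1, the intestinal cholesterol transporter, ranged 4.11-fold in CPM with GLP-2 and 24.9-fold with BSA (SD 0.741 and 1.75, limma adjusted p = 0.0284).

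MGAM, which releases glucose from starch products at the brush border, was 9.20, 9.80 and 11.23 in log2 CPM with GLP-2 and 5.18, 8.52 and 10.41 with BSA. Control replicate 5 was the lowest and casein replicate 6 the highest, and the BSA steers covered a 37.7-fold range of CPM where the GLP-2 steers covered a 4.09-fold range. The SD was 0.644 with GLP-2 and 1.84 with BSA (limma adjusted p = 0.0422; with the block adjusted p = 0.678). MEP1A, a brush border metalloprotease, had SDs of 0.684 and 1.93 (limma adjusted p = 0.0412), and ACE, a peptidase of the same membrane, 0.791 and 1.73 (limma adjusted p = 0.0439).

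Other genes of carbohydrate assimilation that the study had measured did not pass. LCT tended to be more spread with BSA, with SDs of 1.06 and 1.90 (limma adjusted p = 0.0763). SI, the sucrase-isomaltase, had SDs of 0.516 and 1.01 (limma adjusted p = 0.191), TREH (trehalase) 0.543 and 0.814 (limma adjusted p = 0.286) and SLC5A1 (the sodium-glucose cotransporter) 0.814 and 1.38 (limma adjusted p = 0.290). All 4 had the larger SD with BSA. For the mean, LCT, SLC5A1 and TREH were significantly higher with GLP-2 (edgeR adjusted p = 0.0298, 0.0217 and 0.0390). SLC2A2 and SLC2A5, the facilitative hexose transporters, were under 50 counts in 1 and 9 steers and were not tested. Among the factors of enterocyte genes, GATA4 and CDX2 tended to be more spread with BSA (limma adjusted p = 0.0938 and 0.0879), while the SD of KAT2B, a histone acetyltransferase, was 0.358 with GLP-2 and 0.344 with BSA (limma adjusted p = 0.956).

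**Figure D3:**
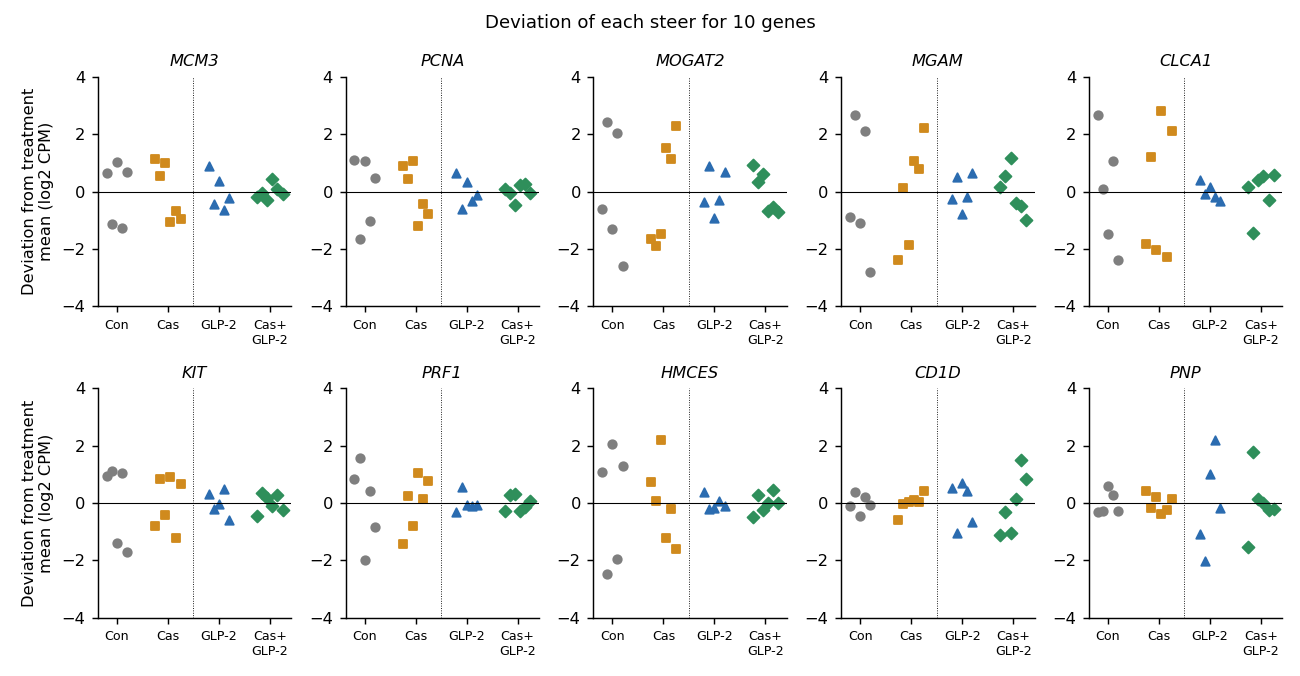
Deviation of each steer from its treatment mean (log2 CPM, scaled for the number of steers in the treatment) for 10 genes, GLP-2 injected and BSA injected steers side by side. In MOGAT2 and MCM3 the BSA steers are the more spread, and in CD1D and PNP the GLP-2 steers are the more spread.

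Goblet cell genes followed the same direction. CLCA1, a secreted protein of goblet cell mucus, lay at chr3:57558897-57592968, and its log2 CPM was 8.05, 9.64 and 10.10 with GLP-2 (lowest, median and highest) and 5.14, 7.38 and 10.06 with BSA. Control replicates 3 and 5 and casein replicates 1, 3 and 5 were at 5.95 or lower, below every GLP-2 steer, while casein replicate 4 reached the level of the highest GLP-2 steer. The SD was 0.557 with GLP-2 and 1.98 with BSA, 3.55-fold larger (limma adjusted p = 0.0150; with the block adjusted p = 0.715). CLCA1 was 1 of 6 tested goblet cell genes and the only member of the list called, where 1.31% of all tested genes were called. The SD was larger with BSA in all 6, beside 84.6% of all tested genes. REG4, a lectin of secretory and enteroendocrine epithelium that was chosen after its values were seen, had SDs of 0.609 and 1.55 (limma adjusted p = 0.0439), with a mean log2 fold change of 0.07 (edgeR adjusted p = 0.914).

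KIT, the stem cell factor receptor of mast cells and interstitial cells of Cajal, lay at chr6:70166692-70254044 and had an adjusted p equal to the smallest of all genes. Its log2 CPM was 4.92, 5.60 and 6.01 with GLP-2 and 3.31, 5.70 and 6.00 with BSA, so the medians and the highest steers were close and the low end differed. The 5 BSA steers low in CLCA1 were those low in KIT, at 4.81 or lower, and the other 6 were at 5.70 or higher. The SD was 0.337 and 1.06, 3.14-fold larger with BSA (limma adjusted p = 0.00868), without a difference in mean that passed (log2 fold change 0.31, edgeR adjusted p = 0.401). With the block the adjusted p was 0.843, and with the smooth muscle score removed the SD of KIT was larger with GLP-2, with a log2 ratio of 0.46. The other tested mast cell genes, FCER1A and ALOX5, were not called, and in both the SD was larger with GLP-2, so that the list of 3 had a median log2 ratio of 0.10. The list read otherwise with a looser count filter (filterByExpr), which tested 10 of its genes. KIT and MS4A2 were then called more spread with BSA, the SD was larger with BSA in 6, and the median log2 ratio was -0.92. Under that filter 370 of all 15086 genes were called for BSA, and 86.2% had the larger SD with BSA.

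In the list of T cells and intraepithelial lymphocytes, 2 of 19 tested genes were significantly more spread with BSA, PRF1 and ITGAE. The SD was larger with BSA in 17, and 2 of the 19 were significantly lower in mean with GLP-2 (edgeR). With tendencies (CD3D, CD8A, CD8B and TRAT1) there were 6, and 15 had an unadjusted p of at most 0.05. Of all tested genes, 1.31% were called for BSA, 6.97% with tendencies and 22.8% without adjustment. The SD was larger with BSA in 84.6% of them, and 13.6% were significantly lower in mean with GLP-2. PRF1, the pore-forming protein of cytotoxic cells, was 4.39, 4.83 and 5.38 in log2 CPM with GLP-2 and 2.86, 4.64 and 6.03 with BSA. The lowest and the highest steers were BSA steers, control replicates 3 and 2. The SD was 0.265 and 1.06 (limma adjusted p = 0.0412; with the block adjusted p = 0.650), and the mean log2 fold change was 0.12 (edgeR adjusted p = 0.765). Granzyme A (gzmA in the table, and for that spelling outside the list) ranged 3.44-fold in CPM with GLP-2 and 43.8-fold with BSA (SD 0.619 and 1.87, limma adjusted p = 0.0412). ITGAE, the integrin chain that holds these lymphocytes in the epithelium, had SDs of 0.332 and 0.947 (limma adjusted p = 0.0439).

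CXCR6, CCL4 and CD244 are lymphocyte genes outside the T cell list, picked from the 119 after their values were seen. CD244, a receptor of cytotoxic cells, had SDs of 0.332 and 1.16 (limma adjusted p = 0.0342). In these genes control replicates 3 and 5 and casein replicates 1, 3 and 5 were the lowest BSA steers, as for KIT. With the smooth muscle score removed, the SDs of ITGAE and CD244 were larger with GLP-2, at log2 ratios of 0.07 and 0.19. B cell follicle genes were often too low to be tested. Of 18 genes 7 were tested, 0 were called by limma and SPIB tended to be more spread with BSA (limma adjusted p = 0.0760). An unadjusted p of at most 0.05 was found for 3, beside 22.8% of all tested genes for BSA. The SD was larger with BSA in all 7, beside 84.6% of all tested genes. SPIB, a transcription factor of B cells, was 5.53, 6.13 and 6.61 in log2 CPM with GLP-2 and 5.94, 6.76 and 9.14 with BSA, and its SD was 0.321 and 1.05. With the follicle score removed, 4 genes were called by limma (BCAM, CMC2, MFSD9 and NPC1L1), all more spread with BSA.

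The leading genes by p held several with no list. TTC1, a co-chaperone, was 4.82, 5.03 and 5.25 in log2 CPM with GLP-2 and 5.02, 5.78 and 6.16 with BSA. Its SD was small in both sets, at 0.144 and 0.520 (limma adjusted p = 0.00868; with the block adjusted p = 0.637). INTS10, a subunit of the Integrator complex that processes small nuclear RNA, had SDs of 0.108 and 0.541 (limma adjusted p = 0.0216). UBR7 (a ubiquitin ligase for histone H2B) had 0.156 and 0.645, and MTERF4 (a factor of mitochondrial ribosome assembly) 0.111 and 0.465. For these 4 genes all GLP-2 steers lay within a 1.40-fold range of CPM, so that the steers of this set were nearly alike.

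BCAM, a laminin receptor of epithelial cells, ranged 3.02-fold in CPM with GLP-2 and 8.30-fold with BSA. HYAL1, a hyaluronan-degrading enzyme, ranged 1.98-fold and 7.52-fold, and ATP10B, a lipid flippase, 2.91-fold and 7.66-fold. MYORG, a glycosidase, and MFSD9, a transporter-like membrane protein, completed the first 15. Of the 15 leading genes with a symbol, TTC1, MCM3, BCAM, UBR7, INTS10, PCNA and HMCES were significantly lower in mean with GLP-2, MYORG, MFSD9 and ATP10B were significantly higher, and the other 5 did not pass the test of the mean. The largest ratios of all tested genes, as a description, were those of ZNF181 (0.0511 and 0.372), TMEM260 (0.0657 and 0.373), HMCES, RAB43 and TUBGCP2, and of these only HMCES passed.

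A few further genes were picked from the 119 after their values were seen, and say nothing about a group. AHR, the aryl hydrocarbon receptor, had SDs of 0.224 and 0.635 (limma adjusted p = 0.0264). THRA, a thyroid hormone receptor, had 0.239 and 0.734 (limma adjusted p = 0.0413), and RXRB, a partner of nuclear receptors, 0.156 and 0.481 (limma adjusted p = 0.0315). CDKN1A, an inhibitor of the cell cycle, had 0.343 and 0.966 (limma adjusted p = 0.0476). None of these 4 passed the test of the mean (edgeR adjusted p = 0.0611, 0.116, 0.191 and 0.370). Of 18 xenobiotic enzymes, UGT2A1 (a glucuronosyltransferase) and CYP4F2 (a fatty acid hydroxylase) were called, and UGT8 was called among 21 sphingolipid genes. Among all tested genes 1.31% were called for BSA.

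Large lists of housekeeping genes shared the direction with few calls. NOP56 was called of 40 ribosome biogenesis genes (SD larger with BSA in 39), RPL7L1 of 79 cytosolic ribosomal proteins (74), and 0 of 76 mitochondrial ribosomal proteins by limma (74, with 21 at an unadjusted p of at most 0.05). Of 73 nuclear genes of oxidative phosphorylation 0 were called by limma, 5 without adjustment, and 68 had the larger SD with BSA. Among all tested genes 22.8% passed for BSA without adjustment, and 84.6% had the larger SD with BSA. Over the 43 lists, 22 of the 119 called genes were listed, which is 2.74% of the 803 tested genes in a list beside 1.31% of all tested genes.

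In some lists the spread was closer between the sets. The median log2 ratio was -0.05 for cholesterol synthesis and uptake (SD larger with BSA in 12 of 21 genes), -0.10 for collagen and stroma (10 of 12), -0.16 for amino acid response genes (8 of 15, with the serine synthesis enzyme PSAT1 called) and 0.00 for macrophages and dendritic cells (6 of 13). In the collagen and the macrophage lists 0 genes were called by limma, and without adjustment 0 and 1 gene. Over all tested genes the median log2 ratio was -0.56, and 84.6% had the larger SD with BSA. COL1A1, a fibrillar collagen, was widely spread in both sets, with SDs of 1.19 and 1.76 (limma adjusted p = 0.352).

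**Figure D4:**
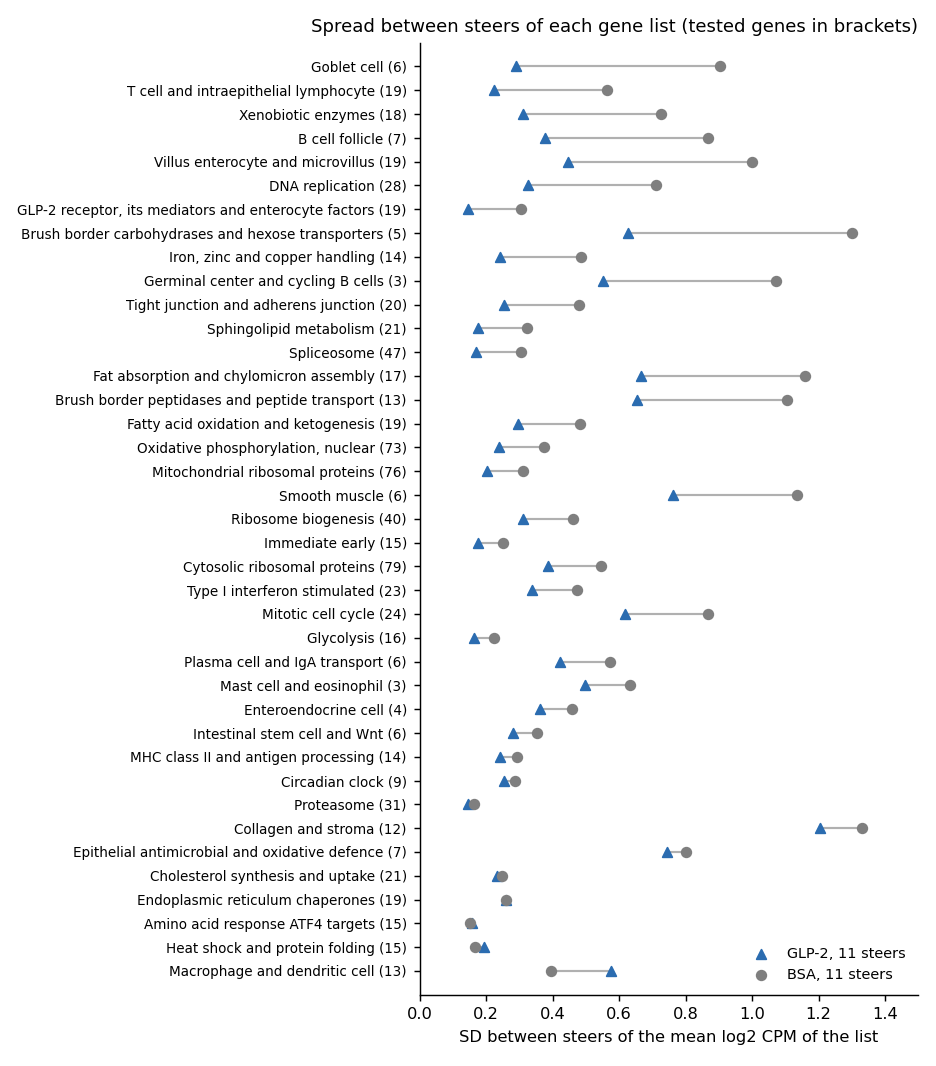
SD between steers of list scores (the mean log2 CPM of the tested members of a list, treatment means removed) with GLP-2 and with BSA for 39 lists. The goblet cell score has the largest ratio, at 0.291 and 0.904, and the macrophage, heat shock and ATF4 target scores are wider with GLP-2.

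The mean log2 CPM of a list's tested genes gives each steer a score, and its SD is given as a description. Goblet cell scores had an SD of 0.291 with GLP-2 and 0.904 with BSA, T cell scores 0.224 and 0.564, xenobiotic enzyme scores 0.312 and 0.725, B cell follicle scores 0.379 and 0.868, and villus scores 0.448 and 1.00. Proteasome scores, at 0.145 and 0.163, ATF4 target scores, at 0.156 and 0.150, and endoplasmic reticulum chaperone scores, at 0.259 and 0.261, were of like size in both sets. Macrophage scores had the larger SD with GLP-2, at 0.576 and 0.396.

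Villus and DNA replication scores deviated with opposite signs in 11 of 11 GLP-2 steers and in 9 of 11 BSA steers. No other pair of lists was counted in this way, so the count is only a description. Villus scores ranged from 8.75 to 10.1 with GLP-2 and from 6.74 to 9.68 with BSA. Replication scores ranged from 4.04 to 5.17 with GLP-2 and from 4.29 to 6.06 with BSA. Control replicates 5 and 3 and casein replicates 3 and 1 were low in the villus score and high in the replication score, and control replicates 2 and 4 and casein replicates 4 and 6 were the reverse. Smooth muscle scores moved with part of this: control replicate 5 had the highest deviation (2.03) and control replicate 2 the lowest (-1.44), while GLP-2 replicate 1 had the second highest at 1.58. With the smooth muscle score removed limma called 0 genes, with unadjusted counts of 1114 for BSA and 152 for GLP-2. The part of muscle, follicle or villus share in the spread of single genes was not tested beyond these fits.

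**Figure D5:**
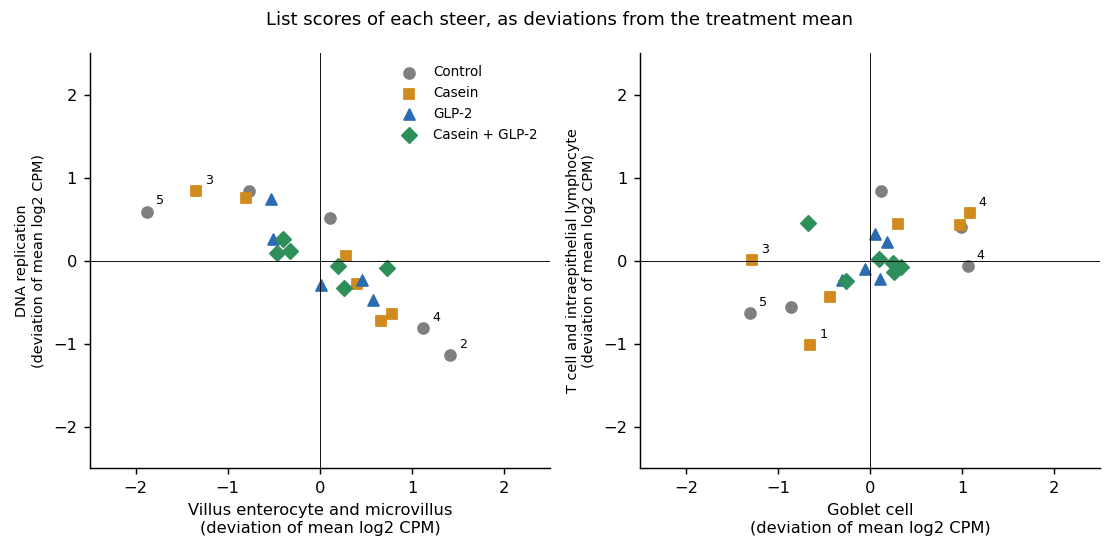
Deviations of list scores from the treatment mean (log2 CPM) per steer: villus enterocyte against DNA replication, and goblet cell against T cell. The BSA steers reach from -1.88 to 1.41 on the villus axis and the GLP-2 steers from -0.535 to 0.727.

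CD1D was the single gene significantly more spread with GLP-2. It encodes an antigen-presenting molecule for lipids and lay at chr3:11914670-11919678. Its log2 CPM was 5.44, 6.59 and 7.83 with GLP-2 and 6.07, 6.81 and 7.35 with BSA. The lowest 3 steers were casein + GLP-2 replicates 1 and 3 and GLP-2 replicate 3, the highest was casein + GLP-2 replicate 5, and all BSA steers lay between the extremes of the GLP-2 steers. The SD was 0.852 with GLP-2 and 0.292 with BSA, 2.92-fold larger with GLP-2 (limma adjusted p = 0.0412; with the block adjusted p = 0.637), and the mean log2 fold change was -0.03 (edgeR adjusted p = 0.933). In fits without 1 steer, CD1D lost significance in 10 of 22, and in other settings it did so in 11 of 21. With another count filter (filterByExpr) the 1 gene called for GLP-2 was ENSBTAG00000054046 and not CD1D.

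ST3GAL2 (a sialyltransferase), SDF2 (an endoplasmic reticulum protein), TAGAP (a GTPase activator of T cells) and PLCB2 (a phospholipase of blood cells) tended to be more spread with GLP-2 (limma adjusted p = 0.0639, 0.0713, 0.0879 and 0.0955). Casein + GLP-2 replicate 5 was the highest steer in all 4 by deviation. The next genes by p did not pass. FES, a kinase of myeloid cells, had SDs of 0.729 and 0.376, FOLR2, a folate receptor of macrophages, 0.735 and 0.360, and TCIRG1, a proton pump subunit, 0.541 and 0.264 (limma adjusted p = 0.103, 0.111 and 0.103). TYROBP, a signalling adaptor of myeloid cells, had SDs of 0.783 and 0.536 (limma adjusted p = 0.209). In these 4 genes the high GLP-2 steers were GLP-2 replicates 4 and 5 and casein + GLP-2 replicates 5 and 6. They do not stand for a cell type. Of the 13 tested genes of the macrophage and dendritic cell list, which holds TYROBP, 7 had the larger SD with GLP-2 and 6 with BSA. The median log2 ratio of that list was 0.00.

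PNP, an enzyme of purine salvage, had the largest SD ratio in this direction, as a description. It was 5.01, 6.42 and 8.83 in log2 CPM with GLP-2 and 6.23, 6.56 and 7.08 with BSA, a 14.1-fold and a 1.81-fold range of CPM. GLP-2 replicate 5 and casein + GLP-2 replicate 2 were high and GLP-2 replicate 3 and casein + GLP-2 replicate 1 were low. The SD was 1.23 and 0.322 (limma adjusted p = 0.121). NUDT3, GUCY1B1, CD1D and CHTOP had the next largest ratios, at 3.72, 2.92, 2.92 and 2.82.

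The difference in spread was not shown to depend on the infusion. The interaction of injection and infusion in the limma fit of the deviations called 0 genes (0%), with a smallest adjusted p of 0.367 and 611 genes at an unadjusted p of at most 0.05, of which 423 had a positive and 188 a negative term. Median SDs over all tested genes were 0.464 in control, 0.426 in casein, 0.313 in GLP-2 and 0.301 in casein + GLP-2. The SD was larger in control than in GLP-2 in 79.0% of genes and larger in casein than in casein + GLP-2 in 75.4%.

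Of the 119 genes, 42 were significantly lower and 9 significantly higher in mean with GLP-2 and 68 did not pass (edgeR). Counted by sign alone, 60 fold changes were positive and 59 negative. Over all tested genes, 1234 were lower (13.6%) and 790 higher (8.73%). The 119 genes were not low in abundance: their lowest count in any steer had a median of 239, and their median mean log2 CPM was 5.53 beside 5.38 for all tested genes. Control replicate 2 was the farthest steer in 30 of them, casein replicate 3 in 26 and control replicate 5 in 21. Casein replicate 1 was the farthest in 11 and control replicate 3 in 10. Over all tested genes these steers were the farthest in 16.1%, 18.9%, 9.81%, 9.23% and 9.08%, in the same order.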

How the data were processed

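Per the labels and the study's methods, the authors aligned strand-specific paired reads to ARS-UCD1.2 with HISAT2 2.0.5 and assigned them to genes with featureCounts 1.5.0-p3, and deposited raw read counts per gene, which are not normalized. FPKM values deposited by the authors beside them correct for gene length and depth, and served here as 1 alternative. The authors' DESeq2 1.20 results were not used. A further GLP-2 steer of the study, and RNA integrity per steer, were not analysed here.

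In R 4.3.3, limma 3.58.1 and edgeR 4.0.16 were used. Counts were turned into TMM-normalized log2 CPM (prior count 2) for genes with 50 or more counts in every sample, which held 94.6% to 97.0% of counts. Absolute deviations from the treatment mean, times the square root of n/(n - 1), were compared between the 11 GLP-2 and 11 BSA steers by lmFit and eBayes. The test of the mean was edgeR's quasi-likelihood test. On simulated data with equal spread in both sets, small p-values of the spread test came somewhat too often, a few genes of equal spread passed the adjusted threshold, and most of the smaller simulated differences were missed. Each steer is a separate animal. Library totals differed, so thinning all libraries to the smallest was an alternative.

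Named with values were the 15 genes with a symbol and the smallest p in each direction, the first 2 of each list, genes the study had measured, the 5 largest SD ratios in each direction, and genes marked as chosen later; some genes under this rule are not reported here. Tested members of 43 lists were counted without a set test. The comparison, members and lists were chosen with earlier results of these data known. Replicate numbers are the block numbers of the labels, and that the 6 blocks were formed by BW is from the study's methods. Treatment means removed, the correlation averaged -0.0106 over 30 pairs of steers within blocks (-0.576 to 0.557) and 0.00124 over 151 other pairs, as a description. No 2 libraries were identical. Alternatives were other normalizations, count filters, thinning to 8809666 counts, other centres and tests, the block, infusions apart, scores or a component removed, FPKM, a threshold of 0.10, DESeq2 1.42.0 for the means, and leaving out each steer.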

Additional observations from a re-analysis of the deposited data

Results flagged for a closer look

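Of 568 treatment groups of values, 14 held a steer far from the rest of its treatment by Dixon's test, where chance gives about 5%. The total count of casein replicate 5 (23666186) stood above the other casein steers. FOLR2 in control replicate 2 was low at a log2 CPM of 4.65, beside a wider spread with GLP-2 in this gene. Casein + GLP-2 replicate 2 was low in REG4 (5.62) and RXRB (4.91), genes more spread with BSA. SI was low in casein + GLP-2 replicate 6 (9.54), CDX2 high in GLP-2 replicate 3 (7.36), TMEM260 high in GLP-2 replicate 6 (5.19), GUCY1B1 low in casein + GLP-2 replicate 1 (3.90) and CHTOP low in casein replicate 2 (7.29). Among list scores, casein replicate 3 was high for B cell follicle genes (6.47) and low for oxidative phosphorylation (6.58), casein replicate 1 was high for stem cell and Wnt genes (5.74), casein + GLP-2 replicate 4 was high for cholesterol synthesis (6.88) and GLP-2 replicate 1 was low for oxidative phosphorylation (7.19).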

How the results depend on the processing

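The larger SD with BSA over most genes held in every setting (72.5% to 87.3% of genes). The steer distance kept its direction, from -0.303 to -0.0727 (permutation p = 1e-05, the smallest it can give, to 0.0462) and from -0.186 to -0.135 without each steer. The median log2 ratio was -0.22 with the replicate block, -0.35 with the smooth muscle score removed, -0.40 with the first component removed, and -0.61 to -0.48 without each steer. The number of called genes was not stable. For BSA it was 370 by filterByExpr (15086 genes), 873 with no filter, 190 with trend and robust, 1 by the F test (ZNF181), 4 with the follicle score removed, 631 at a threshold of 0.10, and 0 with the treatment median, squared deviations (unadjusted 1765), the negative binomial dispersion test (1726), the block, water steers alone (1474), casein steers alone (959), the smooth muscle score or the first component (1063) removed. For GLP-2 it was 2 with library totals (CD1D and ST3GAL2), 2 after thinning (CD1D and MOCOS), 4 with trend and robust (CD1D, PNP, NUDT3 and ENSBTAG00000050846), 377 with no filter, 5 at 0.10, and 0 by the F test, with the follicle score removed and in each setting that gave 0 for BSA. Without each steer the counts were 8 to 440 and 0 to 2. They were 9 without control replicate 4, 20 without control replicate 2, 37 to 71 without casein + GLP-2 replicates 1, 2, 4, 5 and 6, GLP-2 replicate 6 or casein replicates 1 and 3, and 287 to 382 without casein replicates 2, 4 and 6 or control replicate 1. Of the 119 genes, 113 were shared with DESeq2's size factors, 98 with upper quartile, 111 with filterByExpr and 77 with trend and robust. The DESeq2 Wald test of means called 1293 higher and 1579 lower. The direction of single genes changed (log2 SD ratios in parentheses, where for SPIB with the block, CD8B and TUBGCP2 the mean absolute deviation changed sign and the SD did not) for SPIB with the block (-0.021) and the follicle score (0.38), COL1A1 with the block (0.26), KIT (0.46), ITGAE (0.074), CD244 (0.19), CD8A (0.16) and CD8B (-0.069) with the muscle score, and with the first component for MEP1A (0.36), AURKB (0.16), RFC2 (0.023), CDT1 (0.12), LIG1 (0.037), RRM2 (0.35), ACTA2 (0.23), FANCI (0.18), CD101 (0.023), JCHAIN (0.65), MCM2 (0.27) and TUBGCP2 (-0.14). KAT2B, near equal in both sets, was at 0.13 with library totals, 0.11 thinned, -0.017 with the median, 0.058 squared and by F test, 0.13 by dispersion and FPKM, 0.42 in water steers, 0.11 with the component removed, and -0.088 to 0.29 without each steer. In MCM3 and TPX2 the SD alone changed direction in another setting, with highest log2 ratios of 0.035 and 0.087. Their mean absolute deviations did not change direction. The causes of these changes were not tested. Block means are estimated from steers of both sets, and fits of a single infusion use fewer steers.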

Other observations

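Over all tested genes the SD was larger with BSA in 84.6%. For BSA 1.31% were called, 6.97% with tendencies, and 22.8% had an unadjusted p of at most 0.05. Lists not described above mostly had the larger SD with BSA in most members. All 20 tested tight and adherens junction genes did, with 0 called by limma, 5 at an unadjusted p of at most 0.05 and a median log2 ratio of -0.65, while 14 of them were significantly higher in mean with GLP-2 by edgeR. Of 47 spliceosome genes the SD was larger with BSA in 41, with 0 called, 9 tendencies and 17 at an unadjusted p of at most 0.05. Type I interferon stimulated genes had the larger SD with BSA in 21 of 23, with a median log2 ratio of -0.45 and tendencies in IFIH1 and IFI44L. Of 31 proteasome genes 26 had the larger SD with BSA, with a median log2 ratio of -0.32. By limma 0 were called, with 1 at an unadjusted p of at most 0.05, so these counts were no higher than over all genes. Plasma cell and IgA transport genes had 0 of 6 called and 0 at an unadjusted p of at most 0.05, with the larger SD with BSA in 4. With genes kept by filterByExpr, which tests 17 of the 18 B cell follicle genes, CD79A was called more spread with BSA and the median log2 ratio of the list was -1.32.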
